A study of Mus musculus with 8 samples.

Results

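The complement proteins C3, C4 and C5 and the broad protease inhibitors of the α2-macroglobulin kind belong to the same protein family as CD109. The 9 genes described here are A2m, Pzp, C3, C4b, Hc (which encodes C5), Cfb, Cfp, C3ar1 and C5ar1, of 21095 genes named on the array. They were chosen for their function, and every probe whose accession mapped to them was read, which gave 10 of 55458 probes, 2 for C3 and 1 for each other gene. The arrays measured whole skin of female FVB/N mice 24 h after DMBA (7,12-dimethylbenz(a)anthracene, a topical carcinogen) or untreated, which the deposited labels give as acetone, the solvent of DMBA. The groups were DMBA-treated CD109-/- skin, DMBA-treated CD109+/+ skin, untreated CD109-/- skin and untreated CD109+/+ skin, with 2 arrays each and 8 in all. CD109-/- mice lack the gene in all cells and had been backcrossed to FVB/N. No label ties an array to a mouse of its own, and the p-values therefore cover the spread between samples, which may be technical.

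Complement is a cascade of blood and tissue proteins that tags microbes and damaged cells. C3 and C4 carry an internal thioester that binds them covalently to nearby surfaces once they are cleaved, C5 shares their fold without the thioester, and A2m and Pzp use the same chemistry to trap proteases. CD109, anchored in the cell membrane by a glycosylphosphatidylinositol tail, is the family member that these mice lack. In the alternative pathway factor B (Cfb) is the protease that cleaves C3, and properdin (Cfp) stabilises the enzyme complex. The small fragments C3a and C5a act on the receptors C3ar1 and C5ar1, which myeloid cells carry. In skin, macrophages, fibroblasts, keratinocytes and fat cells are known sources of complement proteins, although the liver makes most of those in blood.

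Values are log2 signals, meaning the deposited spot intensity divided by the intensity at its array's 75th percentile and put on a log2 scale, and levels are compared between arrays and not between probes. Cd109, the check of the labels, had log2 signals of −8.06 and −7.70 in DMBA-treated CD109-/- skin, against 0.84 and 1.42 in DMBA-treated CD109+/+ skin. Untreated skin labelled CD109-/- had 1.66 (replicate 1) and −8.11 (replicate 2), against 2.06 (replicate 1) and −6.49 (replicate 2) in untreated skin labelled CD109+/+. Replicate 1 of the untreated CD109-/- group and replicate 2 of the untreated CD109+/+ group thus read opposite to their labels, and where the probe lies relative to the deletion is unknown here. The DMBA groups differed by at least 117-fold, with CD109-/- below CD109+/+, a bound that sets the dim group at the dimmest probe still well above background. The fitted difference uses readings below that level. The probe was tested only through DMBA-treated CD109+/+ skin, where it is high, so no p-value is given for it. The labels were kept as deposited, and results that rest on these 2 untreated arrays are also given without both. Each untreated group then has a single array, and the SE of such a fit comes from the 4 DMBA arrays alone. Comparisons with untreated skin are therefore given there as log2 fold changes only. The 4 DMBA arrays filled one row of the slide and the 4 untreated arrays the other, and the effects of treatment and of slide row cannot be told apart. Epidermal and dermal markers were present on every array, with all 5 basal, all 4 cornified and all 6 fibroblast markers on the array well above background. No spot was saturated, and 2 arrays per group limit the precision.

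In DMBA-treated CD109-/- skin, 6 of the 8 tested genes (C3, C4b, Cfb, Cfp, C3ar1 and C5ar1) were lower on both arrays than on either array of DMBA-treated CD109+/+ skin, by 1.76-fold (C4b) to 5.09-fold (C3ar1). Hc was higher on both arrays, Pzp overlapped, and 0 of the 8 passed the test. Of all 36921 probes tested, 29.8% were lower and 41.7% higher on both arrays, and the median log2 fold change of the 8 genes was −1.1, against 0.12 over all probes. In whole skin, fewer cells of a type and less RNA per cell cannot be told apart.

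Of the 9 genes, 8 were well above background on all 8 arrays and were tested, while A2m was not well above background on any array and has no measured level here. With limma fitted to all 8 arrays, 0 of the 8 passed a Benjamini-Hochberg adjusted p of 0.05 in any of 6 comparisons. For CD109-/- against CD109+/+ skin after DMBA, 0.0163% of all probes passed as higher and 0.065% as lower, 30 probes in all, and 0 or 1 probe passed once any array was left out. At an unadjusted p under 0.05, 3 of the 8 genes lay past the threshold in that comparison by limma, and 2 did by the methods' t-test. The share of all probes at an unadjusted p under 0.05 is not given here. Such counts, here and below, are therefore no result about these genes.

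**Figure D1:**
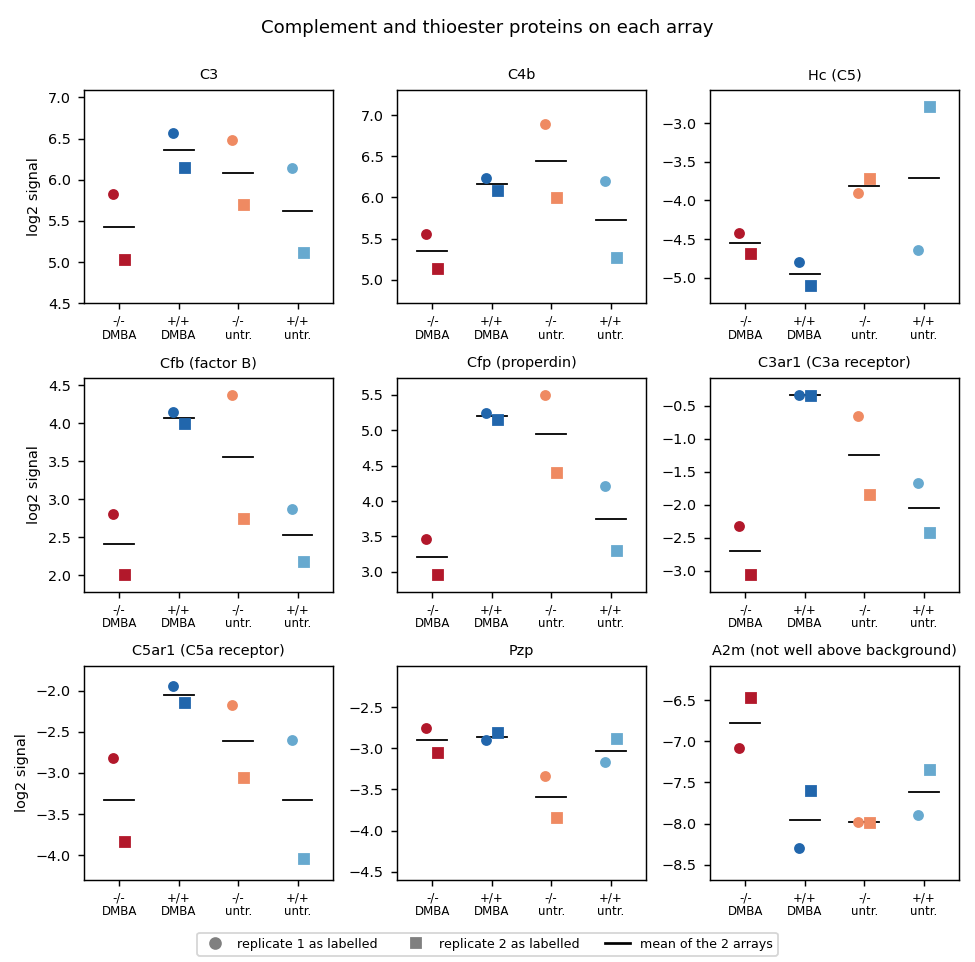
Log2 signal of each of the 9 genes on the 8 arrays, by group as labelled, with circles for replicate 1, squares for replicate 2 and a line at the mean of the 2 arrays. C3, C4b, Cfb, Cfp, C3ar1 and C5ar1 lie lower in DMBA-treated CD109-/- skin than in DMBA-treated CD109+/+ skin with no overlap, and A2m was not well above background on any array.

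The promoters of C3, C3ar1 and Cfp are shown because these genes stand for the central component, a receptor and the alternative pathway among the 6 genes that were lower on both arrays. Each run holds 250 bases before and 50 after the annotated start, 5′ to 3′ on the gene's strand, from RefSeq on build GRCm38.p6, with the matches to the motifs searched in capitals.
C3, chr17:57228087-57228386, minus strand: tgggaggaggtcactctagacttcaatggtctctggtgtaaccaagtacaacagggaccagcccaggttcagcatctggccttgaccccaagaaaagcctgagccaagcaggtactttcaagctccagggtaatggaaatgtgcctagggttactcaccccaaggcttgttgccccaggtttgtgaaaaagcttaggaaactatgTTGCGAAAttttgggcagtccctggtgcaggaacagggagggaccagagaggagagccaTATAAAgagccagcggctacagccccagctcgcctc
C3ar1, chr6:122856108-122856407, minus strand: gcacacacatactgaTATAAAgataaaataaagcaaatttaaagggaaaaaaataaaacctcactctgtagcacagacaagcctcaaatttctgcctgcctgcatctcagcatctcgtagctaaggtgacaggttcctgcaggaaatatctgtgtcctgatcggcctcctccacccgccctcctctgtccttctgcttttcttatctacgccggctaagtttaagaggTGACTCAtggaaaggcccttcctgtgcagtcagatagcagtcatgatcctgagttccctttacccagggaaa
Cfp, chrX:20931506-20931805, minus strand: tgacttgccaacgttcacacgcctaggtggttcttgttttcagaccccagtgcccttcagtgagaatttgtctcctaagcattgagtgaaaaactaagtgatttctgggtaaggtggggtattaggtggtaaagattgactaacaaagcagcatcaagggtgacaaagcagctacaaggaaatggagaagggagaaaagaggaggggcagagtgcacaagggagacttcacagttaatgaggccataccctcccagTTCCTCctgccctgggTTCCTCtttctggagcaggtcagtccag
The motifs, searched on both strands, were NF-kappaB by its consensus, C/EBP as TTGCNNAA, STAT as TTCNNNGAA, AP-1 as TGANTCA, PU.1 as GAGGAA and the TATA box as TATAAA. C3 held 1 match to C/EBP, whose first base lies at position −45 from the start, and 1 to the TATA box at 15. C3ar1 held 1 match to AP-1 at −22, which reads on both strands, and 1 to the TATA box at −235. Cfp held 2 matches to PU.1, at 7 and 23, both on the opposite strand and so printed as the reverse complement. The promoter of C5ar1, also among the 6 genes but not shown, held 0 matches to any of these motifs. Of all 32851 promoters of this length, 10.8% held the C/EBP letters, 7.81% AP-1, 28.3% PU.1, 13.6% the TATA box, 8.46% NF-kappaB and 8.30% STAT. A match is a description of the letters, and no binding was measured.

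C3, the protein on which all complement pathways converge, had log2 signals of 5.83 and 5.02 in DMBA-treated CD109-/- skin, against 6.57 and 6.14 in DMBA-treated CD109+/+ skin. The groups do not overlap, with 0.30 between the nearest arrays before rounding. The log2 fold change was −0.93 (SE 0.49, 95% interval −2.12 to 0.27, adjusted p = 0.268 from limma). The other C3 probe gave −0.94 (SE 0.50, adjusted p = 0.274), so both probes of the gene read alike. On the untreated arrays C3 was 6.48 and 5.69 where the label says CD109-/-, against 6.14 and 5.11 where it says CD109+/+, and these groups overlap. The log2 fold change there was 0.47 (SE 0.49, adjusted p = 1) and −0.45 without the 2 arrays in doubt, a single array on each side.

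C4b encodes complement C4, the thioester protein of the classical and lectin pathways. Its log2 signals were 5.56 and 5.13 in DMBA-treated CD109-/- skin, against 6.24 and 6.08 in DMBA-treated CD109+/+ skin, a log2 fold change of −0.81 with an SE of 0.43 (adjusted p = 0.269). Both CD109-/- arrays are the lower ones, by 0.52 at the nearest pair. On the untreated arrays it was 6.89 and 5.99 where labelled CD109-/-, against 6.20 and 5.26 where labelled CD109+/+. The highest C4b level of all 8 arrays was thus on the array labelled untreated CD109-/- replicate 1. A copy of the gene, C4a, has no probe named on this array, and whether the C4b probe also reads C4a was not tested.

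Cfb, the protease of the alternative pathway, had log2 signals of 2.81 and 2.01 in DMBA-treated CD109-/- skin, against 4.14 and 3.99 in DMBA-treated CD109+/+ skin. The fold was 3.15, with a log2 fold change of −1.65 (SE 0.58, 95% interval −3.09 to −0.22, adjusted p = 0.155). Cfp, which encodes properdin and is made by macrophages and neutrophils, had log2 signals of 3.46 and 2.96 in DMBA-treated CD109-/- skin, against 5.25 and 5.15 in DMBA-treated CD109+/+ skin. Its nearest arrays lie 1.70 apart, while the arrays of either group lie within 0.50 of each other. The log2 fold change was −1.99, a fold of 3.98 (SE 0.47, 95% interval −3.14 to −0.84, adjusted p = 0.103). Cfd, factor D, which activates factor B and is abundant in fat, gave −0.64 (SE 0.43, adjusted p = 0.358).

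C3ar1, the receptor of C3a, gave the widest difference of the 9 genes. Its log2 signals were −2.33 and −3.06 in DMBA-treated CD109-/- skin, against −0.34 and −0.35 in DMBA-treated CD109+/+ skin. The log2 fold change was −2.35, a fold of 5.09 (SE 0.48, 95% interval −3.54 to −1.16, adjusted p = 0.0997). C5ar1, the receptor of C5a, had log2 signals of −2.82 and −3.84 in DMBA-treated CD109-/- skin, against −1.95 and −2.15 in DMBA-treated CD109+/+ skin. The log2 fold change was −1.28 (SE 0.60, adjusted p = 0.231), and the 2 CD109-/- arrays differ from each other by 1.02. C5ar2, the other C5a receptor, gave −0.67 at its brightest probe (SE 0.25, adjusted p = 0.170) and of −1.17 at the other (SE 0.24, adjusted p = 0.0997).

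Hc and Pzp did not share this pattern. Hc, the gene of C5, of which FVB/N mice are known to lack the circulating protein, had log2 signals of −4.42 and −4.69 in DMBA-treated CD109-/- skin, against −4.80 and −5.11 in DMBA-treated CD109+/+ skin. It is higher on both CD109-/- arrays by 0.11 at the nearest pair, a log2 fold change of 0.40 with an SE of 0.57 (adjusted p = 0.665). Pzp, the pregnancy zone protein, a protease inhibitor close to α2-macroglobulin, was −2.75 and −3.06 in DMBA-treated CD109-/- skin, against −2.90 and −2.82 in DMBA-treated CD109+/+ skin. These arrays overlap, and the log2 fold change was −0.04 with a 95% interval from −0.63 to 0.55 (SE 0.24, adjusted p = 0.921). The A2m spots read −7.08 and −6.47 in DMBA-treated CD109-/- skin, against −8.30 and −7.61 in DMBA-treated CD109+/+ skin, and since neither group was above background they give no order.

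The SE of these values draws on the spread of all 4 groups. Without the 2 untreated arrays in doubt the log2 fold changes after DMBA are the same by construction, and the adjusted p was 0.0701 for Cfp, 0.0718 for C3ar1, 0.0830 for Cfb, 0.107 for C4b, 0.126 for C5ar1 and 0.166 for C3. Again 0 of the 8 genes passed, and 5 lay at an unadjusted p under 0.05. Leaving out each array in turn gave log2 fold changes of −2.71 to −1.98 for C3ar1, −2.24 to −1.74 for Cfp, −2.05 to −1.26 for Cfb, −1.79 to −0.77 for C5ar1, −1.33 to −0.52 for C3 and −1.03 to −0.60 for C4b. Both ends of each range came from leaving out a DMBA-treated CD109-/- array, the value nearer 0 from leaving out replicate 2.

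**Figure D2:**
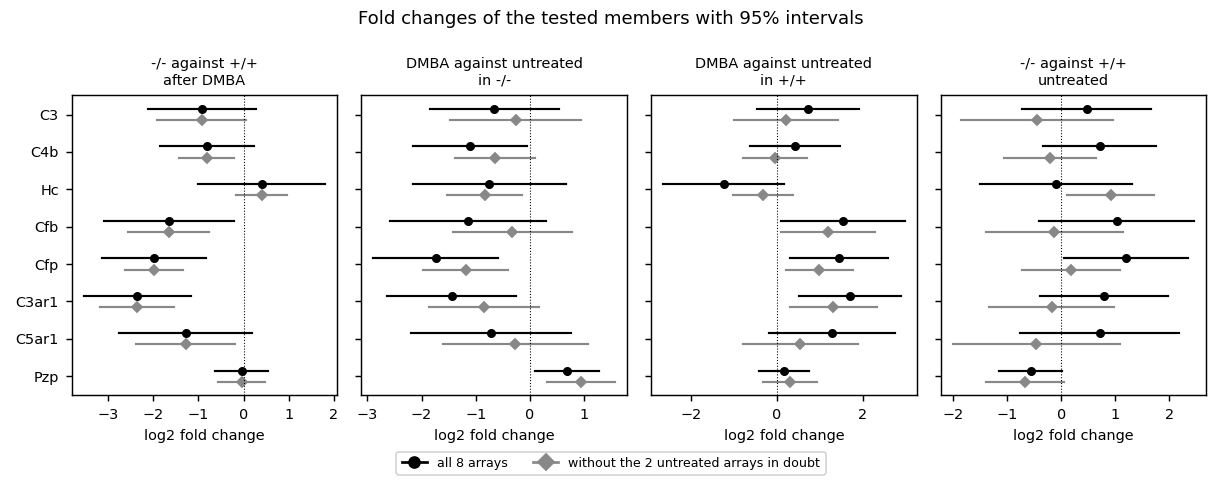
Log2 fold change of the 8 tested genes with its 95% interval in 4 comparisons, from the limma fit to all 8 arrays (black circles) and from the fit without the 2 untreated arrays in doubt (grey diamonds). Where untreated skin is compared, the grey intervals have a single untreated array per group and take their width from the DMBA arrays. After DMBA, C3ar1 (−2.35), Cfp (−1.99) and Cfb (−1.65) lie farthest below 0, and in untreated skin 6 of the 8 values lie on the other side of 0 once the 2 arrays are left out.

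Treatment was compared within each genotype, which asks how DMBA alters these genes with and without CD109. These comparisons share arrays with the one above, so they are no independent view of it. In DMBA-treated CD109-/- skin, 4 of the 8 genes (C3ar1, C4b, Cfp and Hc) were lower on both arrays than on either array labelled untreated CD109-/-, and 1 (Pzp) was higher, where 15.4% of all probes were lower and 29% higher in this way. In DMBA-treated CD109+/+ skin, 5 genes (C3, Cfb, Cfp, C3ar1 and C5ar1) were higher on both arrays than on either array labelled untreated CD109+/+ and 1 (Hc) was lower, where 23.2% of all probes were higher and 25.8% lower. For C3 the nearest arrays of these 2 groups both read 6.14, so its order rests on unrounded values. Of the 8 genes 0 passed in either comparison, where over all probes 0 passed in CD109-/- skin and 0.141% passed as higher and 0.0379% as lower in CD109+/+ skin. There were 4 genes in CD109-/- skin and 3 in CD109+/+ skin at an unadjusted p under 0.05 by limma, and by the methods' t-test 1 in CD109-/- skin and 2 in CD109+/+ skin.

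Cfp had log2 signals of 3.46 and 2.96 in DMBA-treated CD109-/- skin, against 5.50 and 4.39 on the arrays labelled untreated CD109-/-, a log2 fold change of −1.74 with an SE of 0.47 (adjusted p = 0.264). It was 5.25 and 5.15 in DMBA-treated CD109+/+ skin, against 4.21 and 3.29 on the arrays labelled untreated CD109+/+, a log2 fold change of 1.45 with an SE of 0.47 (adjusted p = 0.351). The direction is opposite in the genotypes, and without the 2 arrays in doubt the log2 fold change was −1.18 in CD109-/- skin and 0.99 in CD109+/+ skin. C3ar1 was −2.33 and −3.06 in DMBA-treated CD109-/- skin, against −0.66 and −1.85 on the arrays labelled untreated CD109-/-, a log2 fold change of −1.44 with an SE of 0.48 (adjusted p = 0.297, and a log2 fold change of −0.85 without the 2 arrays). It was −0.34 and −0.35 in DMBA-treated CD109+/+ skin, against −1.67 and −2.43 on the arrays labelled untreated CD109+/+, a log2 fold change of 1.70 with an SE of 0.48 (adjusted p = 0.301, and a log2 fold change of 1.32 without the 2 arrays). For both genes the DMBA-treated CD109+/+ arrays lie close together and above both arrays of their untreated group.

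For Cfb the DMBA effect on the log2 scale was −1.14 (SE 0.58, adjusted p = 0.410) in CD109-/- skin and 1.54 (SE 0.58, adjusted p = 0.407) in CD109+/+ skin. Without the 2 arrays in doubt it was −0.33 in CD109-/- skin and 1.20 in CD109+/+ skin. C5ar1 had −0.71 (SE 0.60, adjusted p = 0.572) in CD109-/- skin and 1.28 (SE 0.60, adjusted p = 0.499) in CD109+/+ skin, and without the 2 arrays −0.27 in CD109-/- skin and 0.55 in CD109+/+ skin. Values of C3 and C4b were smaller, at −0.66 and −1.1 in CD109-/- skin and 0.73 and 0.43 in CD109+/+ skin, and each SE was 0.49 for C3 and 0.43 for C4b. Without the 2 arrays C3 had −0.26 and C4b −0.64 in CD109-/- skin, and C3 had 0.22 and C4b −0.04 in CD109+/+ skin. Pzp had 0.69 (SE 0.24, adjusted p = 0.301) in CD109-/- skin and 0.17 (SE 0.24, adjusted p = 0.839) in CD109+/+ skin, and without the 2 arrays 0.94 in CD109-/- skin and 0.31 in CD109+/+ skin. Hc had −0.75 (SE 0.57, adjusted p = 0.542) in CD109-/- skin and −1.24 (SE 0.57, adjusted p = 0.493) in CD109+/+ skin, and without the 2 arrays −0.83 in CD109-/- skin and −0.32 in CD109+/+ skin.

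The DMBA effect gave a difference between the genotypes, CD109-/- minus CD109+/+, of −3.19 for Cfp (SE 0.66, adjusted p = 0.263), −3.14 for C3ar1 (SE 0.68, adjusted p = 0.264) and −2.68 for Cfb (SE 0.83, adjusted p = 0.278). Without the 2 arrays in doubt it was −2.17 for Cfp, −2.17 for C3ar1 and −1.53 for Cfb. C5ar1, C4b and C3 had −1.99, −1.53 and −1.39 with all arrays and −0.82, −0.60 and −0.48 without the 2. Of the 8 genes, and of all probes, 0 passed this test with all arrays. Of the genes, 4 lay at an unadjusted p under 0.05 with all arrays, and 2 did by the methods' analysis of variance unadjusted.

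In untreated skin, CD109-/- against CD109+/+ as labelled, Cfp was the only one of the 8 genes higher on both arrays and Pzp the only one lower on both, where 7.41% of all probes were higher and 10.9% lower in this way. Of the 8 genes 0 passed and 1 lay at an unadjusted p under 0.05, and of all probes 0.00542% passed as lower and 0 as higher. Cfp had 5.50 and 4.39 on the arrays labelled CD109-/-, against 4.21 and 3.29 on those labelled CD109+/+, a log2 fold change of 1.20 with an SE of 0.47 (adjusted p = 1) and 0.18 without the 2 arrays in doubt. Pzp had −3.34 and −3.85 on the arrays labelled CD109-/-, against −3.17 and −2.89 on those labelled CD109+/+, a log2 fold change of −0.57 with an SE of 0.24 (adjusted p = 1) and −0.68 without the 2 arrays in doubt. With the 2 arrays left out, the sign turned for C3, C4b, Cfb, C3ar1, C5ar1 and Hc, so untreated skin gives no settled direction for these genes. Within each labelled pair of untreated arrays, the array that lacks the Cd109 signal was the lower one for C3, C4b, Cfb, Cfp, C3ar1 and C5ar1, by 0.69 (Cfb in the CD109+/+ pair) to 1.63 (Cfb in the CD109-/- pair). It was the higher one for Hc in both pairs, by 0.18 in the CD109-/- pair and 1.85 in the CD109+/+ pair, and Pzp differed by −0.51 in the CD109-/- pair and 0.28 in the CD109+/+ pair. That array is replicate 2 in both pairs. Summed markers of every cell type listed, macrophages and adipocytes among them, were also lower on it, except neutrophils and hair shaft, which were higher. The share of all probes lower in this way is not given here, and the cause was not tested.

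All 4 DMBA arrays can be set against all 4 untreated arrays without using the genotype labels. Hc averaged −4.75 ± 0.28 after DMBA and −3.76 ± 0.76 untreated (SD, n = 4 each), a difference of −0.99 (exact permutation test, two-sided, p = 0.0571). Pzp averaged −2.88 ± 0.13 after DMBA and −3.31 ± 0.40 untreated, a difference of 0.43 (exact permutation p = 0.0857). The smallest p that 4 against 4 arrays allow is 0.0286. For the other 7 genes the differences were −0.33 to 0.44 and the exact p lay between 0.400 and 0.914, among them A2m, which is not above background. The 4 DMBA arrays overlapped the 4 untreated arrays for all of the 8 tested genes, where 3.78% of all probes were higher and 2.38% lower without overlap. In the limma fit 0 of the 8 passed, where 0.0244% of all probes passed as higher and 0.00542% as lower, and 1 gene (Pzp) lay at an unadjusted p under 0.05. Hc had an adjusted p of 0.438 and Pzp of 0.424, and without the 2 arrays in doubt the difference was −0.57 for Hc and 0.62 for Pzp.

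Mug1 and Mug2 had the widest fitted differences between the genotypes after DMBA among the complement and thioester genes listed, Cd109 aside, while Lrp1, a receptor of α2-macroglobulin, had −0.85 (SE 0.41, adjusted p = 0.245). Mug1 and Mug2 encode murinoglobulins, single-chain protease inhibitors of rodents, and lie beside A2m on chromosome 6 with 0 protein-coding genes between A2m and Mug1 and 0 between Mug1 and Mug2. Mug1 had log2 signals of 2.86 and 1.46 in DMBA-treated CD109-/- skin, against −3.55 and −4.14 in DMBA-treated CD109+/+ skin, a log2 fold change of 6.0 with an SE of 1.87 (adjusted p = 0.132). Mug2 had 2.57 and 1.1 in DMBA-treated CD109-/- skin, against −3.86 and −4.65 in DMBA-treated CD109+/+ skin, a log2 fold change of 6.09 with an SE of 2.26 (adjusted p = 0.168). Neither passed, and without the 2 arrays in doubt the SE was 0.56 for Mug1 and 0.61 for Mug2 (adjusted p = 0.0680 and 0.0693). Untreated skin labelled CD109-/- had Mug1 at −3.96 (replicate 1) and 1.44 (replicate 2), against −1.02 (replicate 1) and 2.08 (replicate 2) where labelled CD109+/+. Mug2 had −5.68 and 1.20 where labelled CD109-/-, against −1.27 and 1.86 where labelled CD109+/+. In each labelled pair the array that lacks the Cd109 signal was the higher one, by 5.40 (CD109-/- pair) and 3.10 (CD109+/+ pair) for Mug1 and by 6.87 (CD109-/- pair) and 3.13 (CD109+/+ pair) for Mug2. The log2 fold change in untreated skin was −1.78 for Mug1 and −2.54 for Mug2 (adjusted p = 1 each) and 2.46 for both without the 2 arrays in doubt. The array that lacks the Cd109 signal is replicate 2 in both untreated pairs, and hair shaft keratins move with these values. The mean log2 signal of 6 such keratins was 2.47 and 7.62 in DMBA-treated CD109-/- skin, against −5.58 and −5.53 in DMBA-treated CD109+/+ skin. It was −4.90 (replicate 1) and 4.53 (replicate 2) in untreated skin labelled CD109-/-, against −4.71 (replicate 1) and 6.32 (replicate 2) in untreated skin labelled CD109+/+, and their part in the murinoglobulin values was not tested. The Mug1 and Mug2 promoters on GRCm38.p6, 300 bases each, were identical in 247 of 344 alignment columns (71.8%). Columns where 1 of the 2 runs has a gap count as not identical, so this share understates the likeness of the paired bases. Whether each probe reads only its own gene was not tested.

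**Figure D3:**
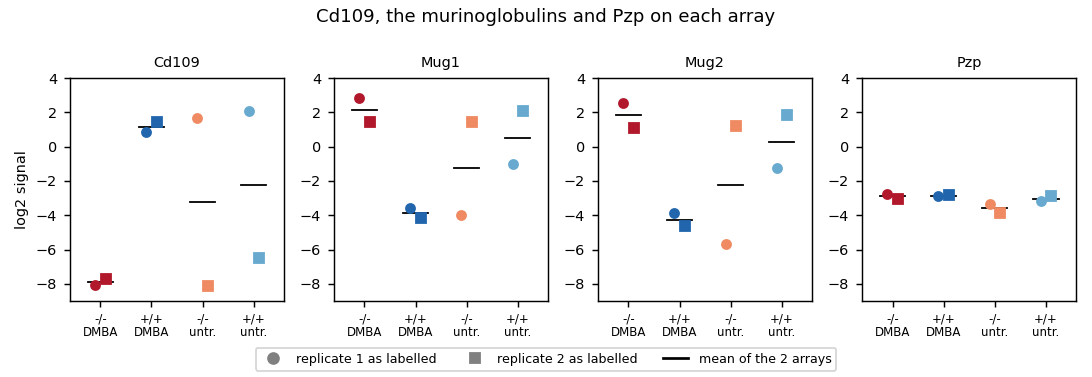
Log2 signal of Cd109, Mug1, Mug2 and Pzp on the 8 arrays, by group as labelled, with circles for replicate 1, squares for replicate 2 and a line at the mean. Mug1 and Mug2 lie above 1 on the 4 arrays where Cd109 lies below −6, and below −1 on the 4 arrays where Cd109 lies above 0.

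Of 55 other complement and thioester genes listed, 53 were on the array and 46 were tested, and 0 passed in any of the 6 comparisons. After DMBA, 32 of the 46 were lower on both CD109-/- arrays than on either CD109+/+ array and 9 were higher, where 29.8% of all probes were lower and 41.7% higher, and their median log2 fold change was −0.99. By the rule for naming, which takes the 4 widest by the fitted log2 fold change, Mug1 and Mug2 are joined by C4bp and Cpn1, for which only the bounds below are measured, and Cfd, C5ar2, Cpn2 and most genes named in the next paragraph were chosen after their values were seen. C4bp, a regulator that binds C4, lay at least 2.77-fold higher in CD109-/- skin after DMBA, a bound, since it was not well above background in CD109+/+ skin. Cpn1, the catalytic subunit of carboxypeptidase N, which inactivates C3a and C5a, lay at least 2.63-fold lower, and Cpn2, its other subunit, at least 2.38-fold higher. No p-value is given for these 3 genes, because each was tested only through the group where it is high. The subunits of the enzyme differ in direction, and each of the 3 genes was below background on both arrays of at least a group. C4bp and Cpn2 were well above background only on the 4 arrays that lack the Cd109 signal. Hair shaft keratins were high on the same arrays, as they were for Mug1 and Mug2, and their part was not tested.

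Genes that start the classical and lectin pathways had values on the same side as C4b, with 13 of 15 lower and 1 higher on both arrays (all probes, 29.8% lower and 41.7% higher, here and for the lists that follow) and a median log2 fold change of −1.25. C1qa, C1qb and C1qc, the subunits of C1q, had −1.70, −1.65 and −1.25 (adjusted p = 0.132, 0.116 and 0.143). Fcna, ficolin A, had −2.78 (SE 0.54, adjusted p = 0.0997). Masp1, a lectin pathway protease, had a fitted −2.09, but was not well above background on 1 of the 2 CD109-/- arrays. Masp1 was tested only through CD109+/+ skin, where it is high, so no p-value is given for it. Mbl1, a mannose-binding lectin, ran the other way at a fitted 1.95, but was not well above background on 1 of the 2 CD109+/+ arrays. It was tested only through DMBA-treated CD109-/- skin, where it is high, so no p-value is given. Of 15 regulators, 10 were lower on both arrays and 3 higher, among the lower ones Cfi, which cleaves C3b, at −2.87 (SE 0.68, adjusted p = 0.104). Of 9 receptors, 6 were lower and 2 higher on both arrays, among the lower ones Vsig4, the C3b receptor of tissue macrophages, at −1.90 (SE 0.40, adjusted p = 0.0997), and Itgb2, the shared chain of complement receptors 3 and 4, at −1.79 (SE 0.65, adjusted p = 0.163). Itgam, the other chain of complement receptor 3, had 0.73 at its brightest probe and −0.42 and −1.69 at its 2 other tested probes, so its direction depends on the probe. Of 3 terminal components tested, C6 was lower on both arrays at −1.96 (SE 0.34, adjusted p = 0.0895) and C7 was higher on both at 0.47 (SE 0.26, adjusted p = 0.279). C8g overlapped at its brightest probe, at −0.29, and was higher on both arrays at its other tested probe, at 0.35 (SE 0.18, adjusted p = 0.263). Its direction thus also depends on the probe, and C8a, C8b and C9 were left untested.

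**Figure D4:**
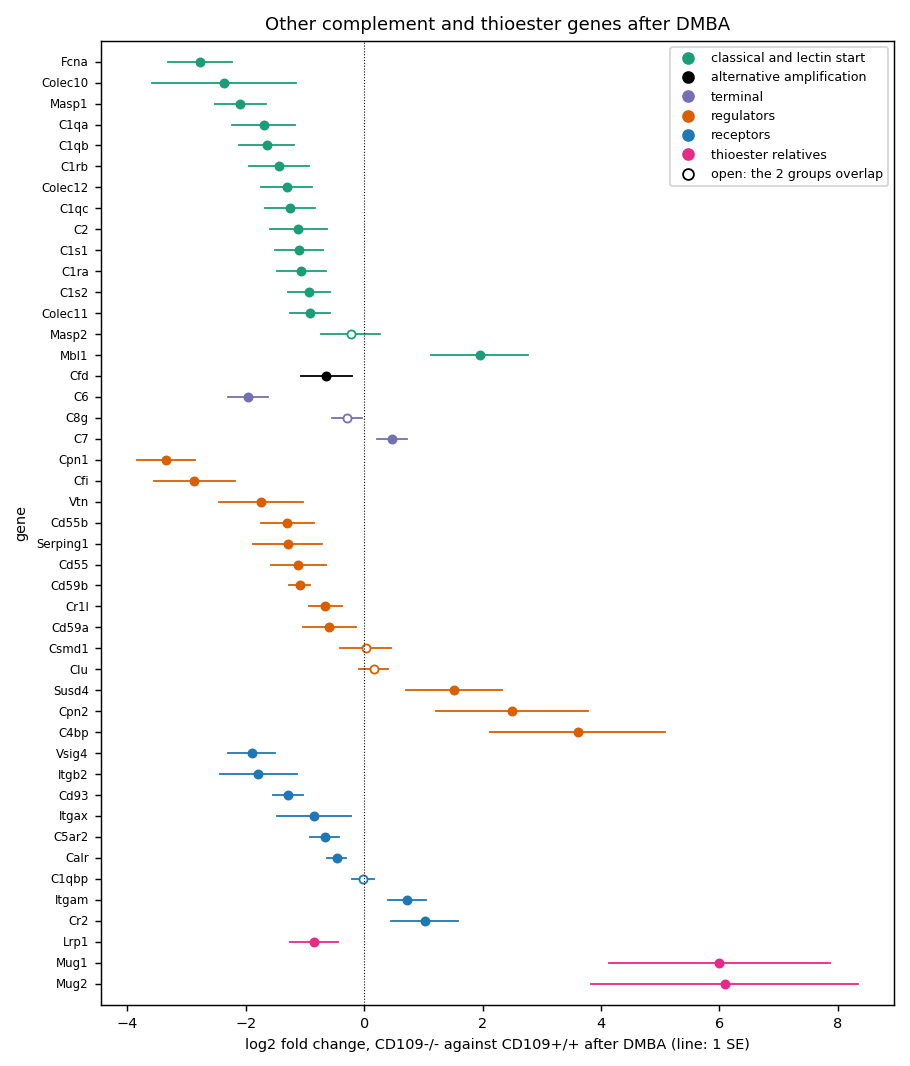
Log2 fold change of 45 of the 46 other tested complement and thioester genes, CD109-/- against CD109+/+ after DMBA, with a line of 1 SE to either side, coloured by list and open where the 2 groups overlap. Genes of the classical and lectin start lie mostly below 0, with Fcna at −2.78, and Mug1 and Mug2 lie at 6.0 and 6.09. C4bp, Cpn1, Cpn2, Colec10 and Cd59b were not well above background on either array of 1 of the 2 groups. Their points and lines are fitted from such readings, and only bounds are measured. Masp1, Masp2 and Mbl1 were not well above background on 1 of the 2 arrays of a group.

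The same list in the genotypes taken singly gave 19 of 46 genes lower and 7 higher on both arrays after DMBA in CD109-/- skin, and 24 higher and 3 lower in CD109+/+ skin. Of all probes, 15.4% were lower and 29% higher in this way in CD109-/- skin, and 23.2% higher and 25.8% lower in CD109+/+ skin. Their medians were −0.55 in CD109-/- skin and 0.59 in CD109+/+ skin, and without the 2 arrays in doubt −0.15 in CD109-/- skin and 0.22 in CD109+/+ skin. In CD109+/+ skin the DMBA effect on Cfi was 3.36 on the log2 scale (SE 0.68, adjusted p = 0.189, and 2.49 without the 2 arrays), and Cpn1 lay at least 2.98-fold higher. In CD109-/- skin, Mbl1 lay at least 2.26-fold higher and Fcna had −2.55 (SE 0.54, adjusted p = 0.245, and −2.01 without the 2 arrays). The DMBA effect in CD109-/- less that in CD109+/+ skin was 8.63 for Mug2 (SE 3.19, adjusted p = 0.300), 7.79 for Mug1 (SE 2.65, adjusted p = 0.286) and −4.37 for Fcna (SE 0.77, adjusted p = 0.251). Without the 2 arrays in doubt it was 3.63 for Mug2, 3.54 for Mug1 and −3.37 for Fcna. In untreated skin Fcna had 1.59 with all arrays (adjusted p = 1) and 0.60 without the 2.

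Markers of several cell types moved with these values. The 8 macrophage markers, all well above background on all 8 arrays, had summed signals (in units of the array's 75th percentile) of 73.0 and 52.1 in DMBA-treated CD109-/- skin, against 198 and 186 in DMBA-treated CD109+/+ skin. On the untreated arrays the sums were 196 and 117 where labelled CD109-/-, against 126 and 79.0 where labelled CD109+/+. All 8 were lower in CD109-/- skin after DMBA without overlap, with a median log2 fold change of −1.93 and 0 that passed. In untreated skin their median was 0.65 with all arrays and −0.14 without the 2 in doubt. The 5 skeletal muscle markers summed to 270 and 144 in DMBA-treated CD109-/- skin, against 578 and 499 in DMBA-treated CD109+/+ skin, and the 6 adipocyte markers to 120 and 98.2 in CD109-/- skin, against 222 and 186 in CD109+/+ skin. The 6 hair shaft keratins on the array ran the other way, with 79.1 and 1280 in DMBA-treated CD109-/- skin, against 0.345 and 0.349 in DMBA-treated CD109+/+ skin. Untreated, they summed to 0.454 and 220 where labelled CD109-/-, against 0.522 and 570 where labelled CD109+/+. Of the 5 hepatocyte markers, 2 were well above background on each DMBA-treated CD109-/- array, against 4 on each DMBA-treated CD109+/+ array, their sums lay between 0.862 and 2.86 on all 8 arrays, and Apoa1 was below background on every one. The part of these cell types in the complement values was not tested.

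**Figure D5:**
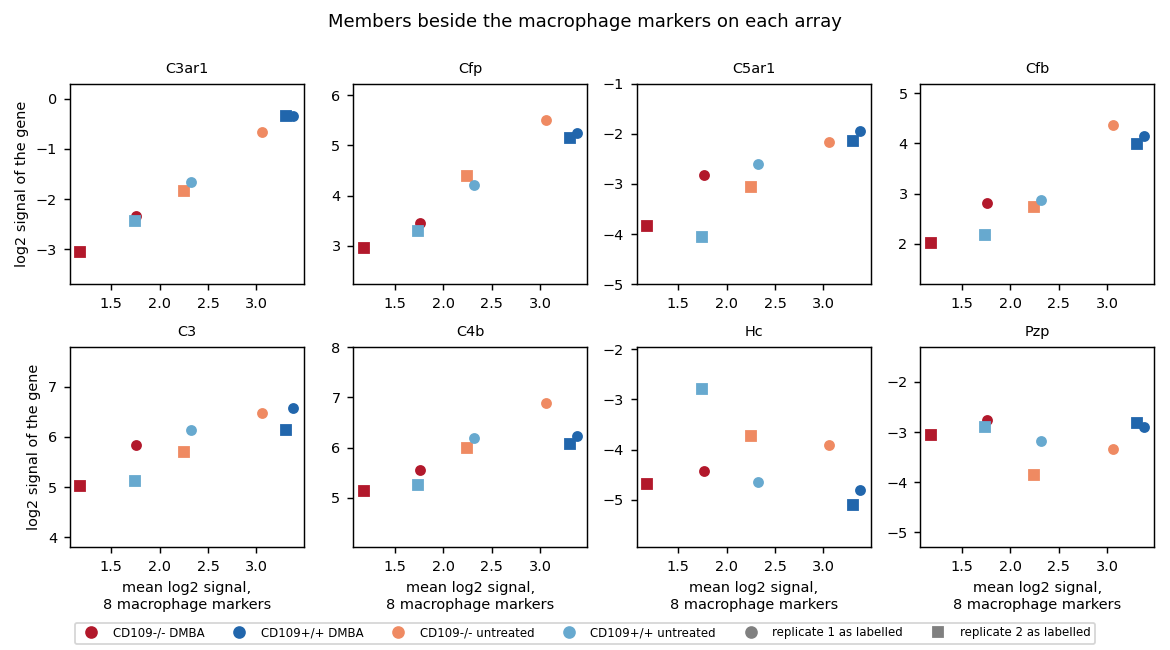
Log2 signal of the 8 tested genes against the mean log2 signal of 8 macrophage markers, 1 point per array, coloured by group as labelled, with circles for replicate 1 and squares for replicate 2. C3ar1, Cfp and Cfb run from low to high with the markers, while Hc and Pzp do not.

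After each profile was centred on its mean over the 8 arrays, the root mean square difference from the mean of the macrophage markers was 0.21 for C3ar1, 0.26 for Cfp, 0.28 for Cfb, 0.34 for C5ar1, 0.37 for C3 and 0.44 for C4b, against 0.83 for Pzp and 1.20 for Hc. Of the 12 marker lists the macrophages were nearest for C3ar1, Cfp, Cfb and C5ar1, the endothelium for C3 (0.21), the adipocytes for C4b (0.25), the mast cells for Pzp (0.33) and the T cells for Hc (0.74). A flat profile would lie at 0.34 from Pzp and at 0.70 from Hc. The lists nearest to Pzp and Hc are thus about as far off as a flat line and show no likeness. Among 15285 single genes, the nearest to C3ar1 were Clec4a3 (0.07), Cd68 (0.12) and Tyrobp (0.13), and the nearest to Cfp were Trem2 (0.17), Igsf6 (0.17) and Arl11 (0.18). Cd68, Tyrobp and Trem2 are genes of macrophages and related myeloid cells. Slc28a2 (0.11), Ccl9 (0.13) and Trim30a (0.14) were nearest to Cfb, and Dennd2a (0.09), Rbpms (0.13) and St8sia4 (0.13) to C3. N4bp2l1 (0.12), Kctd12b (0.13) and Lmo2 (0.13) were nearest to C4b, and B430306N03Rik (0.16) and Naip6 (0.16) to C5ar1. Il1rn, the antagonist of the interleukin-1 receptor, was nearest to Pzp (0.11), followed by Rhod (0.15) and Cdsn (0.17). The genes nearest to Hc lay farther off, with Ccdc92b at 0.32. All these distances are over the same 8 arrays, which share 1 slide, and they describe these arrays only.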

How the data were processed

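RNA from whole skin was hybridized with 1 dye (Cy3) to Agilent mouse arrays, 2 per group. The authors read the images with Agilent Feature Extraction 11.5.1.1, and the deposited intensity had its background subtracted and spatial trends removed by that program but was not scaled between arrays. The value table that the authors also deposited equals these intensities times 1 constant per array, whose basis is not given in the sources used here.

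Spots that were not controls numbered 59305 and stand for 55681 probes after averaging. Of these, 223 were dropped because all their spots carried an outlier mark on some array. Each array was scaled to its 75th percentile, an intensity of 382 to 626, and log2 values were taken, with 63.6% to 67.0% of spots well above background. Names came from the mouse RefSeq annotation through the accession of the probe (94.1% of RefSeq probes), and the brightest tested probe stands for a gene. Testing required both arrays of 1 or more groups to be well above background. A single fit of group means to all 8 arrays (limma 3.58.1 in R 4.3.3, 4 residual degrees of freedom) gave every comparison, with Benjamini-Hochberg adjustment over 36921 probes. Bounds on a fold put the undetected group at the dimmest detected probe of each array. Treatment was also compared gene by gene with an exact permutation test.

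The genes, the lists, the comparisons and the rule for genes named (the 9 genes, Cd109, other listed genes that pass or else the 4 widest in a comparison, and the 3 most alike profiles) were chosen with earlier results of these data known. The fit was tested on simulated data. Other settings tried were quantile and median scaling, normexp (offset 50), other filters on dim probes, fewer arrays in the fit, a replicate block, an intensity trend, the methods' t-test and analysis of variance, treatment as the only term, the value table, the mean of a gene's probes, and leaving out each array. Protein sequences, and promoters of A2m, C4b and Cfb, are not used here. The values of 1 listed gene are not reported here.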

Additional observations from a re-analysis of the deposited data

How the results depend on the processing

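With 2 arrays per group and 2 untreated arrays whose labels are in doubt, a call needs a difference that is wide against the spread, and a level near background (A2m) gives none. Of the 8 genes, 0 passed in any of the 6 comparisons under every alternative but those named here. The replicate numbers were not taken to pair the arrays, since no label says so and the correlation of same-numbered deviations was −0.08 and 0.03 in 2 of 6 pairs of groups, against 0.12 to 0.73 in the other 4. With the replicate number as a block, 2 genes passed after DMBA between the genotypes (C3ar1 at −2.35 and Cfp at −1.99, adjusted p = 0.0454 each), with 10 other complement genes, all lower, and the block changed no other count. The share of all probes that passed with the block is not given here, so these calls are no result about complement in particular. Unadjusted, the methods' t-test called 2 genes and 16 others after DMBA between the genotypes, 2 others in untreated skin, 2 and 2 for DMBA in CD109+/+ skin and 1 and 2 for DMBA in CD109-/- skin, and the methods' analysis of variance called 2 and 13 for the difference and 4 others for the average of DMBA. After adjustment each of these was 0, and the shares of all probes called unadjusted are not given here. Leaving out any 1 array left 0 of the 8 genes and 0 of the other complement genes passing, while the probes that passed over the whole array fell to between 0 and 1 after DMBA between the genotypes (30 with all arrays), 0 and 65 for DMBA in CD109+/+ skin (66) and 0 and 2 for the average of DMBA (11).

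The median of all probes tested lay between −0.26 and 0.22 for CD109-/- against CD109+/+ after DMBA, depending on the scaling, and at −1.68 to −2.73 C3ar1 and at −1.74 to −2.37 Cfp kept their direction under all settings. These signs turned. After DMBA, Hc had −0.09 with quantile normalization, and Pzp 0.11 with normexp, 0.06 in the value table and −0.20 to 0.11 over the left-out arrays. For the difference Hc had −0.01 with quantile normalization, −0.52 without the 2 arrays in doubt and −0.43 to 1.42 over the left-out arrays. For the average of DMBA, C3 had −0.04 with quantile normalization, −0.02 without the 2 arrays, 0.00 in the value table and −0.22 to 0.29 over the left-out arrays, C3ar1 −0.16 to 0.43, Cfp −0.42 to 0.13, Cfb −0.21 to 0.61 and C5ar1 −0.08 to 0.64. C4b for DMBA in CD109+/+ skin had −0.04 without the 2 arrays and −0.04 to 0.90 over the left-out arrays. In untreated skin, without the 2 arrays, C3 had −0.45, Hc 0.92, C3ar1 −0.18, Cfb −0.13, C5ar1 −0.46, C4b −0.21, and Mug1 and Mug2 2.46 each. Over the left-out arrays there, C3 had −0.05 to 0.98, Hc −1.02 to 0.83, C5ar1 −0.01 to 1.44, Mug2 −5.97 to 0.90, Mug1 −4.48 to 0.91 and Cd109 −5.90 to 3.88. The cause was not tested.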
